A study of Mus musculus with 24 samples.

Results

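The comparison described here sets 3 libraries of mouse heart cells given Sox17 against 3 control libraries, all harvested at day 3. These are 6 of the 24 libraries of the series, chosen by their labelled condition and day, and all 35727 genes of the count table were looked at in them, of which 14804 had enough counts to be tested. The series holds 4 conditions, Sox17, SEG, Erg and control, each at day 3 and at day 7 with 3 libraries, and was made to see how far fibroblasts take on the identity of endothelial cells, the lining of blood vessels. The labels give the cell type of the Sox17 libraries as iEC and that of the control libraries as fibroblast. Both sets came from heart tissue and were kept in EGM2, an endothelial growth medium, so the medium is shared. SEG has no fuller name in the labels. The sources used here do not give how Sox17 was brought into the cells, what the control cells received, or the strain, sex and age of the mice. Whether replicates are separate cultures or mice is not said either, so every p-value speaks for the spread among libraries alone, and that spread may be technical.

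Sox17 is a transcription factor of the SOX F group, which binds short DNA letters around ACAAT through its HMG box and bends the helix. It is known for forming definitive endoderm in the early embryo, and for setting arterial fate in vessels together with Notch signalling and vascular endothelial growth factor (VEGF). Endothelial cells hold to each other through VE-cadherin, encoded by Cdh5, and read VEGF through the receptor encoded by Kdr, while heart fibroblasts make fibrillar collagen and carry receptors for platelet-derived growth factor.

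Sox17 itself (chromosome 1, 4490931 to 4497354, mm10) stood at 1549, 1618 and 1653 CPM (counts scaled to library size) in the Sox17 libraries and had 0 counts in all 3 control libraries. That makes it at least 30738-fold higher with Sox17, counted against a floor of 3 counts over the control group, which is 0.0520 CPM. The 3 Sox17 libraries lay close together, and each library was on the side its label names. Whether those reads come from an added copy or from the cells' own gene cannot be told from a gene count, and floors cover counting error only.

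Total counts ran from 22496193 to 35229998 in the Sox17 libraries and from 18794422 to 21332347 in control. Correlations of log2 CPM ran from 0.989 to 0.993 within the groups and from 0.926 to 0.929 between them, and the first principal component of the 6 libraries carried 84.2% of the variance and separated the groups. Ribosomal protein genes took 3.61% to 4.06% of counts with Sox17 and 3.82% to 3.90% in control, and mitochondrial genes 1.42% to 1.63% with Sox17 and 1.39% to 1.48% in control. Both day 7 libraries that stood apart in the series, replicate 1 of Sox17 and of SEG, are outside the comparison, but the fit uses all 24 libraries for the spread.

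By edgeR's quasi-likelihood test with Benjamini-Hochberg adjustment, 3082 of 14804 genes were higher with Sox17 and 2905 were lower, at an adjusted p under 0.05. The background of the comparison is therefore 20.8% called higher and 19.6% called lower, and counts of list members below are to be read against it. Among the called genes, 1488 were higher and 1359 lower by 2-fold or more, 533 and 203 by 8-fold or more, and 358 and 59 by 16-fold or more. By the fitted changes, large changes were thus more often rises than falls. Fitted changes can exceed the bound from the floor of 3 counts where a group had 0 counts. Of the genes called higher 127 had 0 counts in control, and of those called lower 17 had 0 counts with Sox17. The part of such genes, and of the deeper Sox17 libraries, in these counts was not tested. The median log2 change over all tested genes was 0.01. The Sox17 and control libraries did not overlap in 3051 of the genes called higher and 2867 of those called lower, and in 63.5% of all genes tested. Without both outlying day 7 libraries the same fit called 4490 genes higher and 4159 lower, and a test for changes beyond 1.5-fold called 1470 and 1393.

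**Figure D1:**
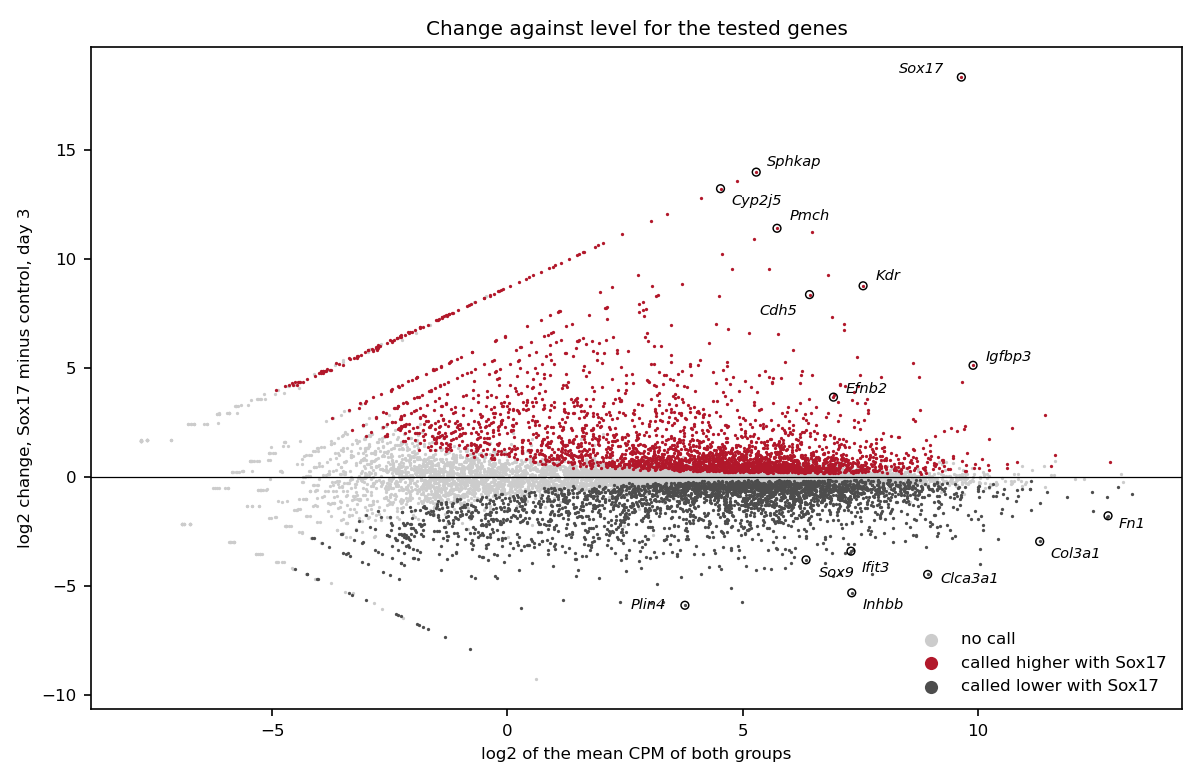
Log2 change of each tested gene (Sox17 minus control at day 3, y axis) against its mean level in log2 CPM (x axis), with colours for the genes called higher and lower. Of 14804 tested genes, 14744 are drawn, since 60 had 0 counts in all 6 libraries. Points reach further above 0 than below it, with 358 rises and 59 falls of 16-fold or more by the fit. Fitted changes of genes with a group at 0 counts can exceed their bounds.

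The 12 genes that rose the most were picked among called genes with 10 CPM or more and no overlap of libraries. Of these, 7 had 0 counts in all 3 control libraries. After Sox17 itself, the largest was Sphkap, a protein that anchors protein kinase A, with 97.5, 72.8 and 64.3 CPM with Sox17 and 0 counts in all 3 control libraries, at least 1544-fold higher. Magix, a PDZ domain protein, stood at 66.3, 52.7 and 58.9 CPM with Sox17 and at 0 counts in control, at least 1145-fold higher. Cyp2j5, a cytochrome P450 that oxidises arachidonic acid, stood at 38.8, 51.4 and 48.3 CPM with Sox17 and at 0 counts in control, at least 879-fold higher. All 3 were read in every Sox17 library and in no control library. Reln, the secreted glycoprotein reelin of neurons and lymphatic vessels, was at least 409-fold higher, H2-Aa, a class II histocompatibility chain, at least 312-fold, and Lipf, gastric lipase, at least 207-fold. Pmch, the precursor of melanin-concentrating hormone, stood at 100.3, 111 and 107 CPM with Sox17 and at 0.0558, 0.0495 and 0 in control, a ratio of 3054 (95% counting interval 845 to 25220.0). Sprr2b, a small proline-rich protein of the cornified skin envelope, rose by 11.22 on the log2 scale to 177 ± 5.53 CPM with Sox17, against 0.0666 ± 0.0755 CPM in control (SD, n = 3). Tmem28 stood at 75.02, 76.6 and 75.01 CPM with Sox17 and at 0, 0.0495 and 0.0512 in control. Sox21, another SOX factor, and Fras1, a matrix protein that joins epithelium to its basement membrane, made up the 12 largest rises. Cyp2j5, Sprr2b and H2-Aa belong to families of close copies and Pmch shares exon sequence with Parpbp, so the split of their reads is uncertain.

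Letters bound by SOX factors were looked for in the promoters of these genes, and those that hold the 7-letter form are shown because their genes were at 10 CPM or more with Sox17 and near 0 in control. The promoters are from RefSeq on GRCm38.p6, run 5′ to 3′ over 250 bases before the start, and have in capitals AACAATG or the core ACAAT, on either strand (CATTGTT and ATTGT are the same letters on the other strand). Lipf covers chr19:33960998-33961247 and Pmch chr10:88090822-88091071, both on the plus strand.
Lipf: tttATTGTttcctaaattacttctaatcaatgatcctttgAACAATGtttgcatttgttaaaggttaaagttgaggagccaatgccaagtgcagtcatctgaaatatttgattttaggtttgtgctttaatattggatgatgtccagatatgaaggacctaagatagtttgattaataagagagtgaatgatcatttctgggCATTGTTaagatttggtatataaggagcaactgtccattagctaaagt
Pmch: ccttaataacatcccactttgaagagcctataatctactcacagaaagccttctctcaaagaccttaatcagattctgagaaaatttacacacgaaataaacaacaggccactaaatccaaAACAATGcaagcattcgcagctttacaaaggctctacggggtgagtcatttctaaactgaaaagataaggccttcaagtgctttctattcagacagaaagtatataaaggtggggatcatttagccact
In Lipf the core lies at positions −247, −209 and −47, counted backwards from −1 just before the start, and the cores at −209 and −47 are part of AACAATG. In Pmch AACAATG gives a core at −128. Of the 12 largest rises 10 had a promoter in the table, and AACAATG was in those of Lipf and Pmch only. A match is a description of the letters and not a measured binding site.

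Across the series the 7-letter form was uncommon. AACAATG was present in 2.06% of the 14240 promoters (250 bases before to 50 after the start) of tested genes, in 2.86% of those of genes called higher and in 1.58% of those called lower. It was present in 34 of 789 promoters (4.31%) of genes called higher by 4-fold or more, and in 5 of 449 (1.11%) of genes called lower by 4-fold or more. Among lists described below, AACAATG was in 0 of 21 promoters of arterial genes, 0 of 6 of Notch target repressors and 1 of 21 of endothelial core genes. The core ACAAT was in 8, 2 and 7 of those promoters. The core ACAAT alone was found in 189 of the 789 promoters of genes higher by 4-fold or more, in 97 of the 449 of genes lower by 4-fold or more and in 20.8% of all promoters. AACAAAG, the letters that TCF and LEF factors share with SOX factors, was found in 6.21% of promoters of genes higher by 4-fold or more, in 4.90% of those lower by 4-fold or more and in 3.95% of all. Median GC content was 58.7% in promoters of genes higher by 4-fold or more, 55.7% in those lower by 4-fold or more and 60.3% in all, and the part of base composition in these shares was not tested. Several promoters of 1 gene share sequence, so these shares are given with no test.

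Endothelial genes rose in part. Cdh5 (chromosome 8, 104101625 to 104144511), the cadherin of endothelial junctions, stood at 182, 170.5 and 160.0 CPM with Sox17 and at 0.391, 0.347 and 0.819 CPM in control (log2 change 8.35, SE 0.36, adjusted p = 2.81e-13 by edgeR). Kdr (chromosome 5, 75932827 to 75978458), the main VEGF receptor of endothelium, stood at 413, 378 and 339 CPM with Sox17 and at 1.23, 0.842 and 0.563 CPM in control (log2 change 8.75, SE 0.40, adjusted p = 6.46e-13). S1pr1, the sphingosine-1-phosphate receptor that steadies vessel junctions, stood at 296, 280.0 and 269.5 CPM with Sox17 and at 2.18, 3.27 and 2.56 CPM in control (log2 change 6.72, SE 0.22, adjusted p = 3.63e-15). For these 3 genes every Sox17 library lay far above every control library. In bulk RNA a change in the number of cells that express a gene and a change in RNA per cell cannot be told apart, here and for every gene below.

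Other members of the endothelial core list were called higher from a low level. Icam2, an adhesion molecule of resting endothelium, averaged 16.8 ± 1.46 CPM with Sox17 and 0.461 ± 0.209 CPM in control (SD, n = 3; log2 change 5.16). Tie1, a receptor tyrosine kinase of endothelium, averaged 1.65 ± 0.358 CPM with Sox17 and 0.0729 ± 0.0858 CPM in control (log2 change 4.47). Emcn, an endothelial sialomucin, stood at 4.84, 4.24 and 4.46 CPM with Sox17 and at 0.223, 0.297 and 0.205 CPM in control. Pecam1, the junction molecule CD31, stood at 2.46, 1.97 and 1.81 CPM with Sox17 and at 0.279, 0.0991 and 0.409 CPM in control (log2 change 2.99, adjusted p = 1.18e-08). The groups did not overlap for any of these 4 genes. Rasip1, which acts in vessel lumen formation, stood at 1.08, 0.412 and 0.463 CPM with Sox17 and at 0, 0 and 0.0512 CPM in control, a ratio of 39.6 (95% counting interval 6.85 to 1586), but shares exon sequence with Izumo1. Robo4, a guidance receptor of endothelium, was at 0.0541, 0.0883 and 0.126 CPM with Sox17 and at 0 counts in control (adjusted p = 0.0479), a call that ended when any Sox17 or control library but replicate 1 of Sox17 was left out (adjusted p from 0.0803 to 0.107).

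Several defining endothelial genes did not rise. Tek, the angiopoietin receptor, stood at 20.6, 18.6 and 17.2 CPM with Sox17 and at 18.4, 19.4 and 17.1 CPM in control, with overlapping libraries (log2 change 0.04, SE 0.16, adjusted p = 0.882). Flt1, the decoy receptor that takes up VEGF, was lower, at 4.35, 4.44 and 5.47 CPM with Sox17 and 9.71, 12.04 and 12.6 CPM in control (log2 change −1.28, adjusted p = 2.81e-04). Cd34, a surface sialomucin of vessels and of stromal cells, stood at 0.973, 1.65 and 1.22 CPM with Sox17 and at 16.01, 17.4 and 16.2 CPM in control (log2 change −3.69). Flt1 and Cd34 did not overlap and lay below control in every library. Cldn5, the claudin of endothelial tight junctions, had 0 counts in all 6 libraries, which allows up to 0.0317 CPM in the Sox17 group and 0.0520 CPM in control. Eng, Vwf, Plvap and Ramp2 were called lower as well. Esam, Clec14a, Nos3, Egfl7, Cd93, Mmrn2, Flt4, She and Ushbp1 had no call. Of the 35 genes of the list 34 were tested, and 17 were higher, 6 lower and 11 without a call, beside the 20.8% higher and 19.6% lower of all genes. The list had a median log2 change of 1.38, and of 1.27 if genes with a group at 0 counts take their bound. Gpihbp1 was not tested. The summed level of the list ran from 1719 to 1976 CPM with Sox17 and from 862 to 893 CPM in control.

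The VEGF axis changed member by member. Of the 4 VEGF ligands and placental growth factor, Pgf, the placental one, stood at 25.3, 25.3 and 27.6 CPM with Sox17 and at 3.40, 3.07 and 3.43 CPM in control (log2 change 2.98, adjusted p = 5.23e-08). Vegfb, Vegfc and Vegfd, which signal in heart and lymphatic vessels, were lower, with log2 changes of −1.003, −1.13 and −0.96, and Vegfa had no call (log2 change −0.22, SE 0.14). The neuropilins, which are co-receptors for VEGF and semaphorins, moved apart. Nrp1, the arterial one, stood at 356, 295 and 243 CPM with Sox17 and at 63.9, 65.4 and 64.8 CPM in control (log2 change 2.20, adjusted p = 3.57e-08). Nrp2, the venous and lymphatic one, stood at 19.5, 21.01 and 18.8 CPM with Sox17 and at 204, 201 and 194 CPM in control (log2 change −3.34, adjusted p = 4.54e-10). In neither did the groups overlap. Of the 10 genes of the axis 3 were higher, 5 lower and 2 without a call (median −0.59). Kdr and the fibroblast receptor gene Pdgfra (chromosome 5, 75152292 to 75198215) lie on the same stretch of chromosome 5 and went in opposite directions, with log2 changes of 8.75 and −1.95.

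**Figure D2:**
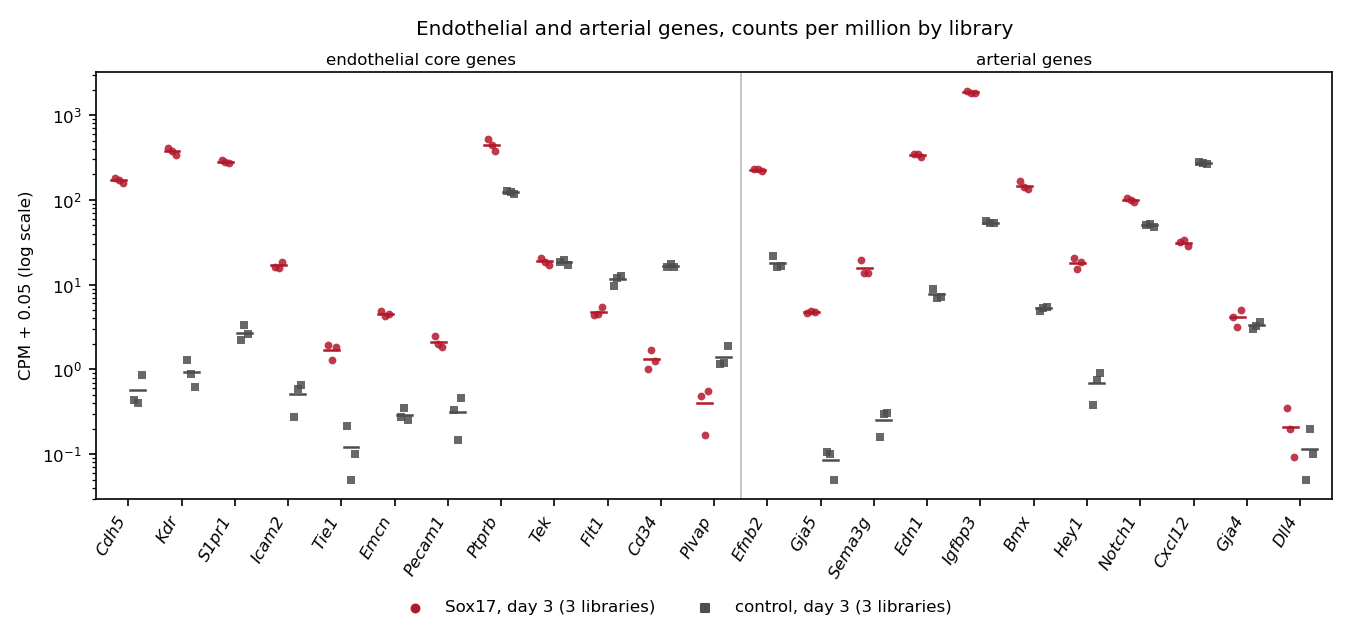
Level of 12 endothelial genes and 11 arterial genes in each day 3 library, as CPM + 0.05 on a log axis, with Sox17 libraries left of control libraries for each gene and short lines at the group means. Cdh5, Kdr and S1pr1 lie at 160.0 CPM or more in all 3 Sox17 libraries and at 3.27 CPM or less in all 3 control libraries, Tek overlaps, and Flt1, Cd34 and Cxcl12 lie lower with Sox17.

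Arterial genes were called higher at a larger share than the endothelial core. Of 25 genes, all tested, 18 were higher, 5 lower and 2 without a call, or 72% higher beside the background of 20.8% higher and 19.6% lower, with a median log2 change of 2.10. Efnb2 (chromosome 8, 8617434 to 8661242), the ephrin that marks arteries, stood at 229.6, 231 and 218 CPM with Sox17 and at 21.7, 16.2 and 16.4 CPM in control (log2 change 3.64, SE 0.25, adjusted p = 2.52e-10). Igfbp3, a binding protein of insulin-like growth factors, stood at 1904, 1836 and 1825 CPM with Sox17 and at 55.96, 52.9 and 53.01 CPM in control (log2 change 5.10, SE 0.13, adjusted p = 1.35e-16). Edn1, the vessel-constricting peptide endothelin 1, stood at 344, 352 and 321 CPM with Sox17 and at 8.87, 6.99 and 7.06 CPM in control (log2 change 5.47, SE 0.16, adjusted p = 1.06e-15). All 3 were higher in 3 of 3 Sox17 libraries with wide gaps to control. Sema3g, a secreted semaphorin of arteries, averaged 15.7 ± 3.30 CPM with Sox17 and 0.205 ± 0.0810 CPM in control (log2 change 6.20). Gja5, a connexin of arteries, stood at 4.60, 4.86 and 4.76 CPM with Sox17 and at 0.0558, 0.0495 and 0 CPM in control, a ratio of 136 (95% counting interval 37.5 to 1129), and it shares exon sequence with Gpr89. Stmn2, a microtubule regulator best known from neurons, had a ratio of 46.6 (95% counting interval 12.7 to 388).

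Other arterial genes did not follow. Gja4, another connexin of arteries, stood at 4.14, 3.09 and 4.97 CPM with Sox17 and at 2.96, 3.22 and 3.58 CPM in control, with overlapping libraries and no call (log2 change 0.31, SE 0.24). Dll4, the Notch ligand of arterial and tip cells, was near 0 in all 6 libraries, at 0.297, 0.147 and 0.0421 CPM with Sox17 and 0, 0.149 and 0.0512 CPM in control (log2 change 1.30, SE 0.84, no call). Cxcl12, a chemokine made by arteries and stroma, averaged 31.1 ± 2.64 CPM with Sox17 and 270.1 ± 5.57 CPM in control (log2 change −3.12, adjusted p = 1.06e-14). Its receptor gene Cxcr4 stood at 1.32, 1.18 and 1.09 CPM with Sox17 and at 0.223, 0.149 and 0.358 CPM in control (log2 change 2.29). Ligand and receptor thus went in opposite directions in all 6 libraries.

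Notch receptors, ligands and target repressors each included genes called higher and genes called lower. Notch1 stood at 105, 101 and 95.1 CPM with Sox17 and at 51.1, 51.5 and 48.4 CPM in control (log2 change 0.99, adjusted p = 0.00106), a rise not called by the test for changes beyond 1.5-fold (adjusted p = 0.0536). Notch4, the endothelial receptor, averaged 213 ± 6.44 CPM with Sox17 and 135 ± 5.13 CPM in control (log2 change 0.66), and Notch2 was lower, with a log2 change of −1.10. The fall of Notch2 was not called by the test beyond 1.5-fold (adjusted p = 0.0735). Jag1 stood at 193, 183 and 173 CPM with Sox17 and at 48.7, 48.8 and 50.8 CPM in control (log2 change 1.89). The ligand Dll1 was lower by the fit, at 0.0970 ± 0.0587 CPM with Sox17 and 1.29 ± 0.448 CPM in control. Of 15 tested genes of 16 in the list of receptors, ligands and modulators, 4 were higher, 2 lower and 9 without a call (median 0.31). Without both outlying day 7 libraries 8 were higher, and by the test beyond 1.5-fold 2 were higher and 1 lower. Rbpj, the DNA-binding partner of Notch, had no call (log2 change −0.27, SE 0.19).

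Hey1, a repressor that Notch turns on in arteries, stood at 20.6, 15.2 and 18.4 CPM with Sox17 and at 0.335, 0.694 and 0.870 CPM in control (log2 change 4.81, SE 0.21, adjusted p = 3.84e-13). Hey2, its close relative, stood at 3.001, 2.83 and 2.53 CPM with Sox17 and at 0.112, 0.446 and 0.205 CPM in control (log2 change 3.41). Hes1, the repressor that answers Notch in most tissues, was lower instead, at 19.4, 19.1 and 22.6 CPM with Sox17 and 54.3, 55.98 and 56.9 CPM in control (log2 change −1.46, adjusted p = 2.98e-07). The groups did not overlap for any of the 3, and Hes1 went against Hey1 and Hey2 in every library. Heyl was higher by 1.04 on the log2 scale. Nrarp, a feedback inhibitor of Notch, was called higher (ratio 6.09, 95% counting interval 1.89 to 31.2, adjusted p = 0.0146) but lost the call without replicate 2 or replicate 3 of control (adjusted p = 0.0758 and 0.0724). Of 8 tested target repressors of 10 listed, 5 were higher, 1 lower and 2 without a call.

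Venous and lymphatic genes went both ways, with 4 higher, 4 lower and 5 without a call among 13 tested of 17 (median −0.08). Prox1, the lymphatic master regulator, stood at 6.19, 4.71 and 4.04 CPM with Sox17 and at 1.004, 0.694 and 0.665 CPM in control (log2 change 2.66, adjusted p = 5.91e-08). Reln, made by lymphatic endothelium as well as neurons, stood at 24.3, 20.3 and 17.97 CPM with Sox17 and at 0 counts in control. Sele, the selectin of inflamed veins, averaged 0.716 ± 0.160 CPM with Sox17 and 3.02 ± 0.811 CPM in control. Nr2f2, the venous fate factor, had no call (log2 change −0.08, SE 0.12), nor did the venous ephrin receptor gene Ephb4 (log2 change −0.02, SE 0.05).

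Other transcription factors of the SOX family changed with Sox17. Sox21 stood at 51.4, 46.5 and 43.4 CPM with Sox17 and at 0.0558, 0 and 0.0512 CPM in control, a ratio of 1373 (95% counting interval 379.9 to 11343). Sox6, known from cartilage and muscle, stood at 102, 92.6 and 74.7 CPM with Sox17 and at 3.35, 3.91 and 4.14 CPM in control (log2 change 4.56, adjusted p = 9.22e-10). Sox9, the cartilage and stromal factor, was lower, at 11.98, 10.9 and 9.35 CPM with Sox17 and 151, 153 and 153 CPM in control (log2 change −3.82, adjusted p = 4.40e-14). None of these 3 overlapped between groups, though Sox21 was picked among genes without overlap. Sox13 was higher by 2.11 on the log2 scale. Of the other SOX F genes, Sox18 did not exceed the floor in either group, and Sox7 stood at 3.03, 2.56 and 1.94 CPM with Sox17 and at 1.39, 1.29 and 1.59 CPM in control (log2 change 0.83, adjusted p = 0.0138). The Sox7 call ended without replicate 1 of Sox17 (adjusted p = 0.0735) or replicate 2 of control (adjusted p = 0.0569). Of 19 SOX genes 12 were tested, and 7 were higher, Sox17 among them, 3 lower and 2 without a call.

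ETS factors, the other main family of endothelial regulators, were not raised as a set, with 3 higher, 4 lower and 8 without a call of 15 tested out of 16 (median −0.11). By the test beyond 1.5-fold 1 was higher and 2 lower. Fli1, an ETS factor of endothelium and blood, averaged 8.64 ± 0.949 CPM with Sox17 and 17.2 ± 0.659 CPM in control (log2 change −0.99, adjusted p = 4.88e-06). Erg was near the floor of 3 counts with Sox17 and under it in control (0.0811, 0.0294 and 0 CPM with Sox17 and 0, 0.0991 and 0 CPM in control, no call). Etv5, an ETS factor that answers FGF signals, was higher by 0.93. Among 24 other endothelial transcription factors 6 were higher, 8 lower and 10 without a call (median −0.12). Bcl6b, a repressor of endothelium, was higher by 2.73 on the log2 scale, Gata3 by 2.58 and Meox2 by 2.18. Klf4, which answers blood flow, averaged 46.2 ± 0.905 CPM with Sox17 and 135 ± 1.43 CPM in control (log2 change −1.55). Tbx20, a heart factor of endocardium and fibroblasts, stood at 225, 196 and 149.6 CPM with Sox17 and at 1301, 1260.1 and 1267 CPM in control (log2 change −2.75, adjusted p = 3.05e-07).

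Genes of definitive endoderm, the other setting in which Sox17 acts, mostly had too few counts to be tested. Of 30 genes 8 were tested, and 4 of these were higher (50%), none lower and 4 without a call (median 1.15). The background was 20.8% higher and 19.6% lower. Foxa2, the pioneer factor of endoderm, had 0 counts in all 6 libraries, and so did Foxa3 and Hnf4a. Prdm1, a repressor used in endoderm and many other tissues, stood at 4.43, 4.03 and 3.58 CPM with Sox17 and at 0 counts in control, at least 78.3-fold higher. Epcam, an epithelial adhesion molecule, was called higher, at 0.216, 0.177 and 0.505 CPM with Sox17 and 0 counts in control, at least 5.27-fold higher. Shh was called higher too, at 0.351, 0.294 and 0.168 CPM with Sox17 and 0 counts in control, at least 5.48-fold higher. Gata4 and Gata6, which heart cells also express, had no call, with log2 changes of 0.02 (SE 0.16) and −0.25 (SE 0.20). In fits of the 6 libraries alone or of the 12 day 3 libraries, 2 of the list were higher and 1 lower. Those fits tested fewer genes, 13251 and 13964.

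Fibroblast genes were lower in larger number. Of 41 genes of fibroblast identity 40 were tested, and 26 were lower, 7 higher and 7 without a call, beside a background of 19.6% and 20.8%, with a median log2 change of −1.30. Pdgfra, a platelet-derived growth factor receptor that marks heart fibroblasts, stood at 186, 164 and 144 CPM with Sox17 and at 633, 651 and 631 CPM in control (log2 change −1.95, SE 0.25, adjusted p = 2.18e-06). Dcn, the proteoglycan decorin, stood at 114, 108 and 101 CPM with Sox17 and at 630.1, 686 and 736 CPM in control (log2 change −2.66, SE 0.12, adjusted p = 4.02e-13). Lum, the related lumican, stood at 8.002, 8.18 and 7.49 CPM with Sox17 and at 109, 128 and 130.2 CPM in control (log2 change −3.95, SE 0.16, adjusted p = 1.05e-13). Each of the 3 was lower in 3 of 3 Sox17 libraries and remained readable in them. Smoc2, a secreted matrix protein, averaged 34.4 ± 0.440 CPM with Sox17 and 297 ± 13.9 CPM in control (log2 change −3.11). Tcf21, the transcription factor of the heart fibroblast lineage, was lower by the fit as well, at 27.2, 23.9 and 21.6 CPM with Sox17 and 126, 141 and 147 CPM in control. The 7 members called higher were Vim, Mfap5, Pi16, Meox1, Tnc, Twist1 and Cdh11. The summed level of the list ran from 28096 to 29067 CPM with Sox17 and from 45217 to 46990 CPM in control.

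Collagen genes were lower by a wide margin of counts. Of 30 tested genes of fibrillar collagen, some other collagens and collagen processing (31 listed), 26 were lower, none higher and 4 without a call (median −0.95). By the test beyond 1.5-fold 17 were lower, and without both outlying day 7 libraries 1 was higher. Col3a1, the chain of type III collagen, stood at 576, 599.9 and 545 CPM with Sox17 and at 4122, 4752 and 4693 CPM in control (log2 change −2.98, SE 0.15, adjusted p = 2.73e-12). Col1a1, a chain of type I collagen, fell less, to 7020.4, 7278 and 7348 CPM with Sox17, against 12102, 12953 and 13231 CPM in control (log2 change −0.82, SE 0.11, adjusted p = 4.07e-06). Col6a3 stood at 32.2, 27.6 and 25.1 CPM with Sox17 and at 263, 324 and 305 CPM in control, and with Col6a1 and Col6a2, which encode the other main chains of type VI collagen, the 3 log2 changes were −3.39, −2.71 and −2.78. Pcolce, an enhancer of collagen processing, had a log2 change of −2.28 and shares exon sequence with Fbxo24. Summed over the list, the level was 23979 to 24396 CPM with Sox17 and 46769 to 50338 CPM in control.

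Basement membrane genes went both ways, with 5 higher, 9 lower and 10 without a call of 24 (median 0.08), with 3 and 3 by the test beyond 1.5-fold and 10 higher without both outlying day 7 libraries. Lama1, a laminin chain of embryonic basement membrane, stood at 123, 117 and 111 CPM with Sox17 and at 2.57, 3.17 and 3.38 CPM in control (log2 change 5.26, SE 0.24, adjusted p = 5.10e-13). Lama3, a laminin chain of epithelia, was higher by 4.16 on the log2 scale. Among type IV collagen chains, Col4a6 averaged 326 ± 20.6 CPM with Sox17 and 54.2 ± 3.14 CPM in control, whereas Col4a3 averaged 0.672 ± 0.212 CPM with Sox17 and 6.22 ± 0.564 CPM in control. Col4a4, the neighbour of Col4a3, was lower too (log2 changes −3.46 and −3.21). Integrins, the receptors for these matrices, were lower in 10 and higher in 4 of 18 genes. Itgb8, the integrin chain that releases active TGF-beta, stood at 392, 349 and 255 CPM with Sox17 and at 19.3, 18.9 and 17.4 CPM in control (log2 change 4.16, adjusted p = 1.14e-07), and Itga8 was lower by the fit (log2 change −3.37).

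Metalloproteinases and their inhibitors were lower in 15 and higher in 4 of 24 tested genes (26 listed, median −0.86), and 2 were higher without replicate 1 or 2 of Sox17 or replicate 2 of control. Mmp13, a collagenase, stood at 36.9, 48.8 and 42.1 CPM with Sox17 and at 0.335, 0.347 and 0.307 CPM in control (log2 change 6.99, adjusted p = 3.94e-12). Mmp3, stromelysin 1, stood at 179.9, 203 and 195 CPM with Sox17 and at 1832, 1906 and 1997 CPM in control (log2 change −3.31, adjusted p = 2.40e-13). Both genes lie in the metalloproteinase cluster of chromosome 9, Mmp13 at 7272514 to 7283331 and Mmp3 at 7445822 to 7455975, and went in opposite directions with no overlap of libraries.

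Part of the genes of smooth muscle contraction were higher. Of 22 tested genes of 25, 13 were higher, 6 lower and 3 without a call (median 1.06). Acta2, smooth muscle actin, stood at 1124, 1461 and 1674 CPM with Sox17 and at 300.1, 260.4 and 287 CPM in control (log2 change 2.33, SE 0.19, adjusted p = 2.40e-09). Cnn1, calponin 1 of contractile fibres, stood at 20.98, 30.3 and 34.7 CPM with Sox17 and at 1.06, 0.991 and 1.38 CPM in control (log2 change 4.64, adjusted p = 1.53e-09). Actg2, the actin of visceral smooth muscle, stood at 22.1, 29.96 and 33.3 CPM with Sox17 and at 0.948, 0.842 and 0.716 CPM in control (log2 change 5.08, adjusted p = 3.85e-09). Replicate 1 was the lowest Sox17 library and replicate 3 the highest in all 3 genes, with no overlap with control. Myl9, a myosin light chain, was higher by 4.16, whereas Mylk, the kinase that activates it, was lower, at 1.0002, 0.912 and 0.800 CPM with Sox17 and 5.24, 5.75 and 7.52 CPM in control (log2 change −2.75). Itga8 and Mylk were the largest falls of the list. The promoter of Cnn1 (RefSeq, GRCm38.p6, chr9:22099003-22099252, plus strand) also holds the 7-letter SOX form, in capitals here, with its core at −147. It was picked for holding these letters, and their share among promoters of contractile genes was not counted.
Cnn1: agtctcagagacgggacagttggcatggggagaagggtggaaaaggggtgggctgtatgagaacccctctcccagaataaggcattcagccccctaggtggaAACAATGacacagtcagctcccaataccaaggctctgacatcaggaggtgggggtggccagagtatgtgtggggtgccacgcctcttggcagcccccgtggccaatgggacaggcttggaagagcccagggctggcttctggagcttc

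**Figure D3:**
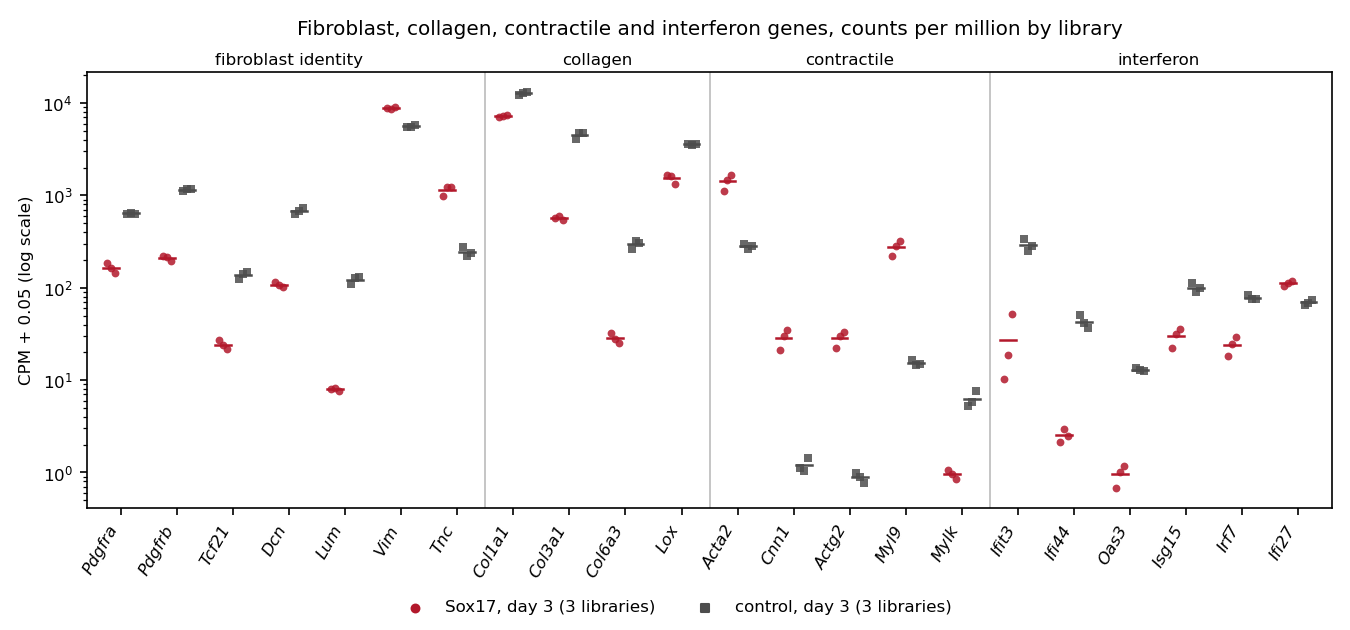
Level of fibroblast, collagen, contractile and interferon genes in each day 3 library, as CPM + 0.05 on a log axis, with Sox17 libraries left of control libraries for each gene and short lines at the group means. Pdgfra, Dcn, Lum and Col3a1 are lower in all 3 Sox17 libraries, Acta2, Cnn1 and Actg2 are higher, and the Sox17 libraries spread widely for Ifit3, from 10.1 to 52.4 CPM.

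Interferon-stimulated genes, which resist viruses, were lower. All 30 were tested, and 23 were lower, 1 higher and 6 without a call (median −1.26), with a summed level of 810 to 1077 CPM with Sox17 and 2025 to 2401 CPM in control. Ifit3 stood at 10.1, 18.8 and 52.4 CPM with Sox17 and at 334, 247 and 285 CPM in control (log2 change −3.42, SE 0.43, adjusted p = 1.40e-06). Ifi44 stood at 2.11, 2.88 and 2.44 CPM with Sox17 and at 50.6, 41.4 and 37.05 CPM in control (log2 change −4.12, SE 0.47, adjusted p = 4.15e-07). Oas3, which makes the RNA signal that starts RNA decay, averaged 0.910 ± 0.263 CPM with Sox17 and 12.9 ± 0.400 CPM in control (log2 change −3.85). The groups did not overlap for these 3 genes, and replicate 3 of Sox17 had the highest Ifit3 of its group. Rsad2 and Cmpk2, also antiviral, overlapped and had no call, with 3.03, 7.39 and 30.3 CPM of Rsad2 with Sox17 and 29.8, 16.99 and 21.03 CPM in control. Ifi27 was the 1 member called higher (log2 change 0.69, adjusted p = 0.0289), and it was not called beyond 1.5-fold or without any 1 library other than replicate 1 of Sox17.

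The promoters of Ifit3 and its neighbour Ifit3b are shown because both genes were lower together (log2 changes −3.42 and −2.42) and their promoters hold the letters TTTCNNTTT (AAANNGAAA on the other strand), the core of the element that interferon regulatory factors bind. They are from RefSeq on GRCm38.p6, plus strand, chr19:34583279-34583528 and chr19:34607707-34607956, with those letters in capitals.
Ifit3: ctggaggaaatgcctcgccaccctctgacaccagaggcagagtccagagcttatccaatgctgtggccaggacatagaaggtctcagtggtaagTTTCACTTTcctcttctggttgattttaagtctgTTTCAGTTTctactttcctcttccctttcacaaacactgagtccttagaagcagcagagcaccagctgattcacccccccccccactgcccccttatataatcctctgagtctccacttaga
Ifit3b: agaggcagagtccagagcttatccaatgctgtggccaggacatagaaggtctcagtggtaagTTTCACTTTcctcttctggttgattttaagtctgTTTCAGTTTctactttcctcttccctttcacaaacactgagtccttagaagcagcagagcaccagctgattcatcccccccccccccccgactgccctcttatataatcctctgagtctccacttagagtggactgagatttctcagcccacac
The letters begin at −156 and −122 in Ifit3 and at −188 and −154 in Ifit3b, and the stretch around them is alike in both, so reads of these 2 genes may be shared as well. TTTCNNTTT was present in 18 of 26 promoters (69.2%) of the list, in 8.17% of all promoters, in 10.1% of those of genes called lower and in 7.29% of those called higher.

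Acute phase, chemokine and complement genes were lower as well, 17 of 23 tested (27 listed), with 4 higher and 2 without a call (median −1.05). C3, the central complement protein, stood at 22.95, 28.7 and 23.7 CPM with Sox17 and at 246, 298 and 322 CPM in control (log2 change −3.52, SE 0.16, adjusted p = 3.62e-13). Hp, haptoglobin, averaged 0.279 ± 0.0914 CPM with Sox17 and 16.3 ± 5.10 CPM in control (log2 change −5.82), one of the 12 largest falls. Among genes with 10 CPM or more in control and no overlap, the largest fall was in Plin4, a lipid droplet coat protein, at 0.487, 0.353 and 0.505 CPM with Sox17 and 25.4, 29.7 and 25.6 CPM in control (log2 change −5.90, adjusted p = 3.56e-14), which shares exon sequence with Hdgfl2. Clca3a1, an accessory protein of chloride channels, fell to 41.4, 44.7 and 38.9 CPM with Sox17, against 854, 1017 and 938 CPM in control. C3 did not overlap between the groups, as 63.5% of all tested genes did not. Hp, Plin4 and Clca3a1 were picked among genes without overlap, so their separation is part of the choice. Agt, angiotensinogen, Lgi2, a secreted leucine-rich protein, Serpina3m, an acute phase serpin with close copies, L1cam, a neural adhesion molecule that shares exon sequence with Arhgap4, Ly6c1, a surface protein of monocytes and endothelium, and Kcne4, a potassium channel subunit, had log2 changes from −5.74 to −4.56.

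Activin and TGF-beta genes included both large rises and large falls, with 7 higher, 8 lower and 4 without a call of 19 (median −0.31). Inhbb, the activin beta B subunit, stood at 6.62, 8.39 and 8.21 CPM with Sox17 and at 299, 331 and 306 CPM in control (log2 change −5.33, SE 0.14, adjusted p = 3.46e-16). Fst, follistatin, which traps activin, stood at 286, 211 and 189.8 CPM with Sox17 and at 16.1, 16.4 and 19.3 CPM in control (log2 change 3.73, SE 0.14, adjusted p = 4.24e-14). Ligand subunit and antagonist thus moved apart in every library, though Inhbb was picked among genes without overlap. Tgfbi, a matrix protein induced by TGF-beta, averaged 1.53 ± 0.288 CPM with Sox17 and 52.7 ± 4.86 CPM in control (log2 change −5.12). Of the BMP pathway, 11 of 24 tested genes (26 listed) were higher, 5 lower and 8 without a call (median 0.58), and 8 were lower without both outlying day 7 libraries. Gdf10, a BMP-like ligand, averaged 8.16 ± 1.49 CPM with Sox17 and 0.158 ± 0.0610 CPM in control (log2 change 5.67), and Bmp4 averaged 26.1 ± 2.26 CPM with Sox17 and 5.19 ± 0.800 CPM in control. Of the TGF-beta genes 7 were higher in the fit with all libraries and 4 without replicate 1 of Sox17 or replicate 2 or 3 of control. By the test beyond 1.5-fold 3 were higher and 5 lower.

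Wnt ligands and feedback genes split, with 10 higher, 8 lower and 7 without a call of 25 tested, out of 28 in the table (median 0.51). Wnt5a, a ligand of the planar branch, stood at 359, 303 and 260.1 CPM with Sox17 and at 19.2, 22.7 and 19.9 CPM in control (log2 change 3.90, SE 0.31, adjusted p = 2.48e-09). Axin2, the usual feedback target of beta-catenin, averaged 3.24 ± 0.590 CPM with Sox17 and 0.668 ± 0.248 CPM in control (log2 change 2.26, adjusted p = 5.09e-05). Sp5, another beta-catenin target, was at 0.784, 0.589 and 1.09 CPM with Sox17 and at 0 counts in control, at least 15.2-fold higher. Dkk3, a secreted Dickkopf family member, stood at 14.9, 10.7 and 9.05 CPM with Sox17 and at 222, 283 and 266 CPM in control (log2 change −4.47, adjusted p = 1.95e-14). The rises of Axin2 and Sp5 were at low counts, whereas Dkk3 was well read in every control library.

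Growth factor genes changed in several families. Igf1, insulin-like growth factor 1, stood at 535, 461 and 413 CPM with Sox17 and at 19.1, 19.7 and 20.7 CPM in control (log2 change 4.57, SE 0.19, adjusted p = 1.31e-13). Pappa, the protease that frees it from binding proteins, was higher by 2.38 on the log2 scale. Across the 13 genes of that system 3 were higher, 6 lower and 4 without a call, and the remaining rise was Igfbp3. Pdgfb, a ligand that draws mural cells to vessels, stood at 7.70, 6.53 and 7.87 CPM with Sox17 and at 0.167, 0.149 and 0.102 CPM in control (log2 change 5.68, adjusted p = 1.00e-12). Its receptor gene Pdgfrb stood at 219, 215 and 196 CPM with Sox17 and at 1112, 1166 and 1176 CPM in control (log2 change −2.45, adjusted p = 2.75e-13). The ligand was thus higher and the receptor lower, without overlap, and of 6 genes of that family 3 were higher, 2 lower and 1 without a call. FGF genes were higher in 11 and lower in 6 of 24 tested, and higher in 5 and lower in 2 beyond 1.5-fold.

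Axon guidance genes, many of which also steer vessels, went both ways, with 12 higher, 16 lower and 6 without a call of 34 (median 0.01). Robo2, a receptor for SLIT proteins, stood at 46.5, 38.1 and 34.7 CPM with Sox17 and at 1.56, 1.34 and 1.43 CPM in control (log2 change 4.78, adjusted p = 4.30e-09). Epha4, a receptor for ephrins, stood at 98.7, 90.7 and 69.7 CPM with Sox17 and at 3.01, 3.27 and 2.66 CPM in control (log2 change 4.85, adjusted p = 9.31e-09). Each lay above control in 3 of 3 libraries. The 16 lower included Sema3a, Sema3c, Sema3d, Sema3e, Sema3f and Unc5b. Transcription factors of heart mesenchyme had 4 higher, 5 lower and 12 without a call of 21 tested (24 listed), and Osr1, an early mesoderm factor, stood at 252, 257 and 256 CPM with Sox17 and at 14.8, 14.1 and 12.2 CPM in control (log2 change 4.22, adjusted p = 5.76e-17). Tbx20 and Tcf21, given above, were among the 5 heart mesenchyme factors called lower. Among 20 immediate early genes 5 were higher and 9 lower. Jun, a subunit of AP-1, was higher by 1.93 on the log2 scale, and Junb had a log2 change of −1.24. Genes of the unfolded protein and stress response had 6 higher, 8 lower and 7 without a call of 21, with 1 higher and 4 lower beyond 1.5-fold.

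**Figure D4:**
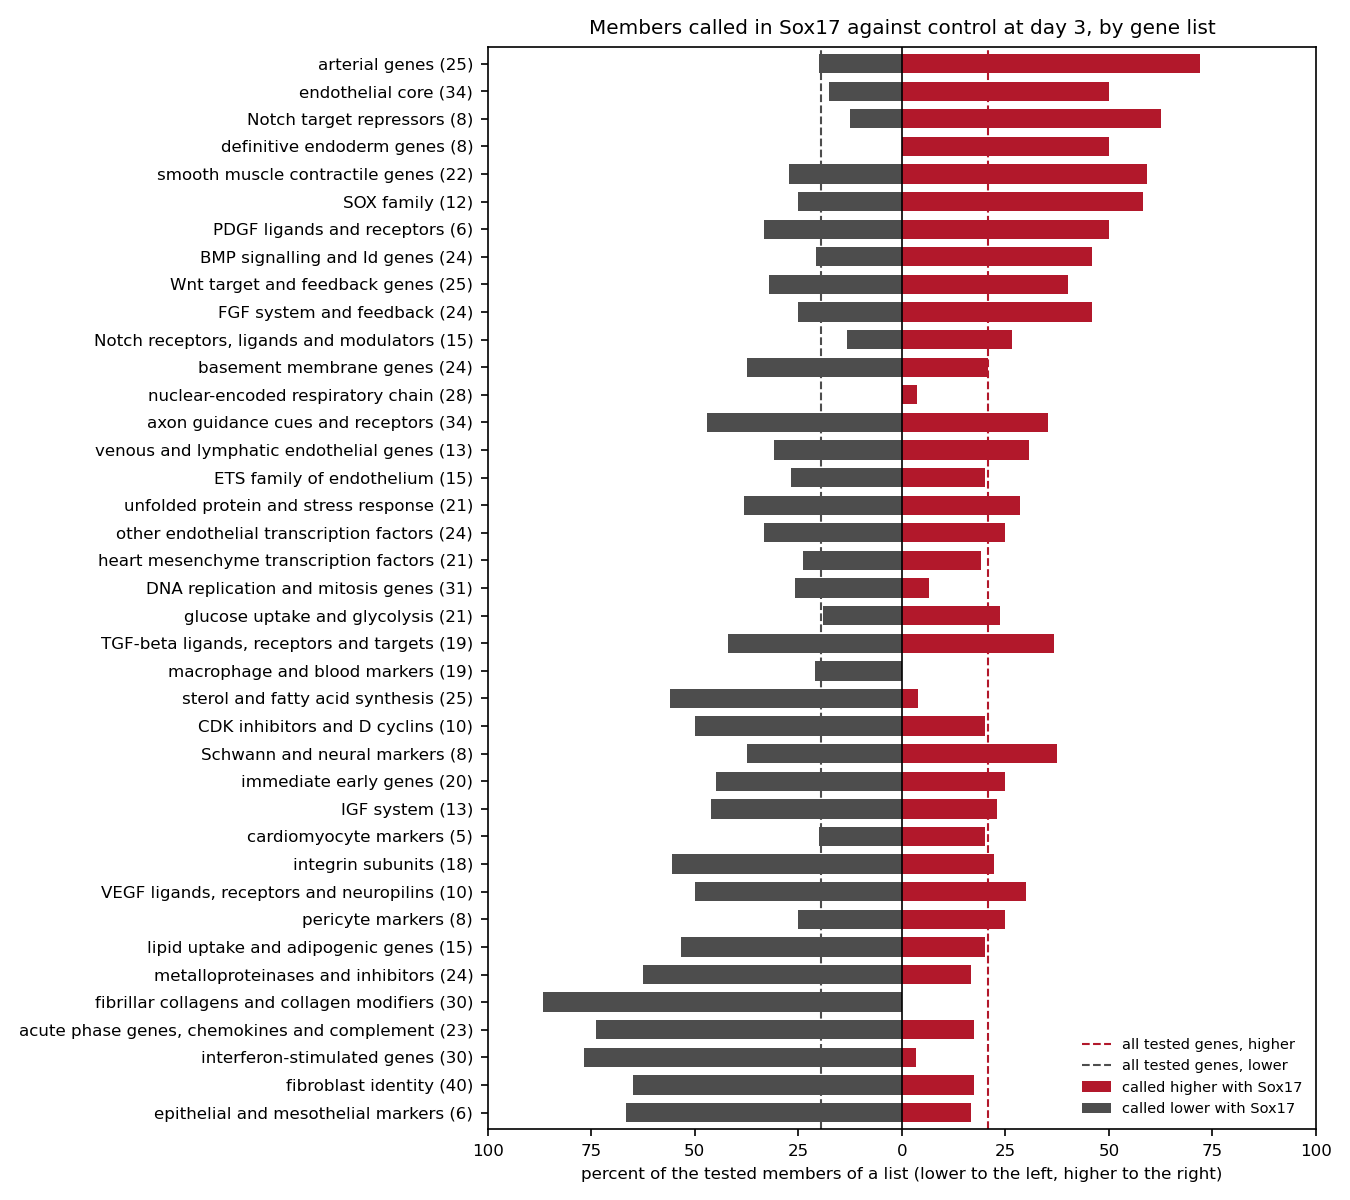
Share of the tested members of each gene list called higher and called lower with Sox17 at day 3, in percent, with lists ordered by their median log2 change. Dashed lines mark the background over all 14804 genes, 20.8% higher and 19.6% lower. Arterial genes have the largest share higher of the lists drawn, 72%. The list of fibrillar collagens and collagen modifiers has the largest share lower, 86.7%.

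Genes of cell division mostly had no call. Mki67, a marker of cells in cycle, stood at 76.1, 73.6 and 57.6 CPM with Sox17 and at 80.1, 80.4 and 75.8 CPM in control, with overlapping libraries and no call (log2 change −0.19, SE 0.18, adjusted p = 0.452). Of 31 genes of DNA replication and mitosis 2 were higher (6.45%), 8 lower (25.8%) and 21 without a call (median −0.15), beside the background of 20.8% higher and 19.6% lower, and none passed beyond 1.5-fold, while without both outlying day 7 libraries 4 were higher and 13 lower. Cdkn1c, the inhibitor p57, stood at 4.24, 5.24 and 4.76 CPM with Sox17 and at 53.6, 65.1 and 62.7 CPM in control (log2 change −3.67, adjusted p = 1.59e-11). Ccnd1, cyclin D1, stood at 184, 194 and 195 CPM with Sox17 and at 778, 699 and 767 CPM in control (log2 change −1.97, adjusted p = 2.78e-13), and shares exon sequence with LTO1. An inhibitor and an activator of the cycle were thus both lower, and of 10 CDK inhibitors and D cyclins 2 were higher, 5 lower and 3 without a call.

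Genes of lipid synthesis were lower by small steps. Of 25 genes of sterol and fatty acid synthesis 14 were lower, 1 higher and 10 without a call (median −0.34), and 3 were lower beyond 1.5-fold. Fasn, fatty acid synthase, averaged 520.3 ± 9.95 CPM with Sox17 and 1059 ± 22.4 CPM in control (log2 change −1.03, adjusted p = 6.29e-08). In glucose use 5 of 21 tested genes (22 listed) were higher, 4 lower and 12 without a call, and 2 were lower when any 1 of the 6 libraries but replicate 3 of Sox17 was left out. Slc2a3, a glucose transporter of high affinity, averaged 74.6 ± 4.32 CPM with Sox17 and 8.79 ± 0.539 CPM in control (log2 change 3.08). Pfkfb3, which drives glycolysis in sprouting endothelium, averaged 235 ± 20.1 CPM with Sox17 and 32.97 ± 2.33 CPM in control (log2 change 2.84, adjusted p = 4.74e-10). Of 28 nuclear genes of the respiratory chain 1 was higher and 27 without a call. Among 15 tested genes of lipid uptake and fat cells (20 listed) 3 were higher, 8 lower and 4 without a call. Without both outlying day 7 libraries 11 glucose genes were lower, and 7 respiratory chain genes were higher and 1 lower.

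Markers of other cell types that heart tissue could hold were also read. Of 23 macrophage and blood markers 19 were tested, and none was higher and 4 lower (7 without both outlying day 7 libraries), with a summed level of 107 to 126 CPM with Sox17 and 145 to 147 CPM in control; Cd3e, a T cell marker, had 0 counts in all 6 libraries. The summed level of 16 cardiomyocyte markers ran from 11.5 to 14.6 CPM with Sox17 and from 53.6 to 57.6 CPM in control, of which Tnnt2 made up most, and Myl3 had 0 counts throughout. Of the 5 tested, Tnnt2 was lower, 3 had no call and Nppb, a natriuretic peptide of stressed heart muscle, was higher, at 0.351, 0.853 and 1.09 CPM with Sox17 and at 0 counts in control, at least 13.8-fold higher (adjusted p = 3.64e-05). Of 10 pericyte markers 8 were tested, 2 higher and 2 lower, and the summed level ran from 281 to 308 CPM with Sox17 and from 1162 to 1231 CPM in control, most of it Pdgfrb. Rgs5, a pericyte gene, was higher by 3.54 on the log2 scale. Epithelial and mesothelial markers summed to 3.77 to 4.55 CPM with Sox17 and 10.6 to 12.7 CPM in control. Of the 6 tested, Epcam was higher, Upk3b, Msln, Lrrn4 and Wt1 were lower, and Krt19 had no call. Of 12 Schwann cell and neural markers 8 were tested, and 3 were higher, 3 lower and 2 without a call, with a summed level of 279 to 319.7 CPM with Sox17 and 238 to 262 CPM in control, and Sox10, the factor that defines Schwann cells, had 0 counts in all 6 libraries. The part of such cells in the results was not tested.

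Against the libraries given Erg, an ETS factor, at the same day, the Sox17 libraries were higher in 4208 genes (28.4%) and lower in 3974 (26.8%). Cdh5 averaged 171 ± 11.2 CPM with Sox17 and 11.1 ± 1.57 CPM with Erg (log2 change 3.95, adjusted p = 1.21e-10 by edgeR). Efnb2 averaged 226 ± 7.16 CPM with Sox17 and 18.5 ± 2.23 CPM with Erg (log2 change 3.61, adjusted p = 1.66e-10). Flt1, lower than control with Sox17, averaged 4.76 ± 0.622 CPM with Sox17 and 204 ± 3.84 CPM with Erg (log2 change −5.43, adjusted p = 1.43e-12). The Sox17 libraries were thus above the Erg libraries in some endothelial genes and below them in others. Of the 25 arterial genes 17 were higher with Sox17 than with Erg and 5 lower, of the 34 tested endothelial core genes 12 and 15, and of the 22 tested contractile genes 13 and 6. Emcn and Pecam1 had no call between the factors, with log2 changes of −0.05 and −0.29 (adjusted p = 0.862 and 0.169), which does not show that they were equal. Sox18 averaged 28.2 ± 1.79 CPM with Erg. Col6a3 averaged 28.3 ± 3.61 CPM with Sox17 and 2784 ± 23.8 CPM with Erg (log2 change −6.62).

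**Figure D5:**
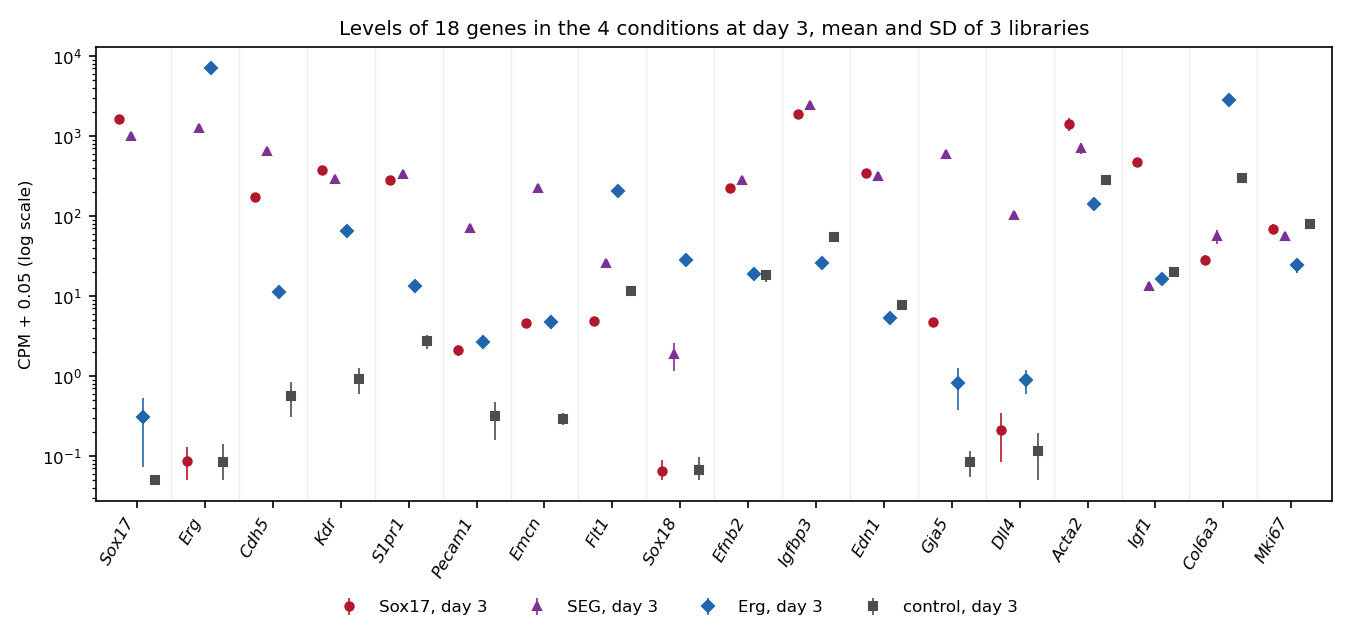
Mean and SD over 3 libraries of 18 genes (x axis) in the day 3 libraries of Sox17, SEG, Erg and control, as CPM + 0.05 on a log axis (y axis). Cdh5 averages 171 CPM with Sox17 and 11.1 CPM with Erg, and Flt1 averages 4.76 CPM with Sox17 and 204 CPM with Erg.

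SEG libraries of day 3, whose levels are given with no test against Sox17, held some of the largest rises and lacked others. Sphkap averaged 60.3 ± 6.36 CPM there, Magix 87.5 ± 0.625 CPM and Sprr2b 89.6 ± 22.3 CPM. Pmch had 0 counts in all 3 of those libraries, and Cyp2j5, Reln and Lipf averaged 0.118 ± 0.0747, 0.0921 ± 0.0355 and 0.0126 ± 0.0218 CPM. Igf1 averaged 13.1 ± 1.72 CPM there, below both the Sox17 and the control libraries.

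By day 7 the difference between Sox17 and control had itself changed in 2113 genes (14.3%, edgeR), in 3695 without both outlying day 7 libraries and in 638 by the test beyond 1.5-fold. Acta2 averaged 1419.9 ± 278 CPM with Sox17 and 282 ± 20.2 CPM in control at day 3, and 2199 ± 683 CPM with Sox17 and 64.8 ± 6.14 CPM in control at day 7 (SD, n = 3 each). Hey1 averaged 18.1 ± 2.69 CPM with Sox17 and 0.633 ± 0.273 CPM in control at day 3, and 44.3 ± 2.86 CPM with Sox17 and 0.512 ± 0.0776 CPM in control at day 7. For both genes the gap between the groups was wider at day 7.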

How the data were processed

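Messenger RNA libraries of mouse heart cells were sequenced, with RNA taken by an RNeasy kit and libraries made by Novogene, per the labels. What the authors deposited is a table of raw counts, whole numbers without normalization, over 35727 genes of which 35422 have a name. Salmon, DESeq2 and build mm10 are named per the submitters' processing notes. The sources used here do not give versions, annotation, strand setting or how estimates became whole numbers, so reads of overlapping genes and close copies may be split wrongly.

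Counts were fitted in R 4.3.3 with edgeR 4.0.16 (limma 3.58.1). All 24 libraries entered 1 quasi-likelihood fit with 8 group means, TMM scaling and filterByExpr at a minimum count of 10, which left 14804 genes. Contrasts were 2-sided, and a gene was called at a Benjamini-Hochberg adjusted p below 0.05. A standard error (SE) is the log2 change over the root of the F statistic. CPM use the TMM-scaled library size. A group at 0 counts was set at a floor of 3 counts over its libraries. Lists were counted and not tested.

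Genes named are 25 fixed genes, the 12 largest rises and falls whose libraries did not overlap and whose higher group reached 10 CPM, up to 5 called members per list, and members without a call. Cd34, Cxcl12, Ifi27, Notch4, Tie1, Vegfb, Vegfc and Vegfd were named beyond it after their values were seen. So were some called members given without values, to show both directions of a list. The members and lists were chosen with earlier results of these data known. On simulated counts the fit found 86 of 100 genes set to a 2-fold change and 99 of 100 set to 4-fold. It made 9 false calls over 14355 genes. A far smaller share of genes was changed there than the 40.4% called in the data. These numbers therefore hold for the simulation only, and no rate for the data is drawn from them. Replicate numbers did not pair the libraries. Coordinates are mm10, and promoters were matched by name for 11166 of 14752 named tested genes. Alternatives were RLE factors, no filter, a replicate block, a test beyond 1.5-fold, smaller fits, DESeq2 1.42.0 and leaving out libraries. Python 3.11.15, pandas 2.3.3 and matplotlib 3.10.9 made tables and figures.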

Additional observations from a re-analysis of the deposited data

Results flagged for a closer look

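Between day 3 and day 7 the Sox17 effect (Sox17 minus control on the log2 scale) differed in 2113 genes by a test of the difference itself (edgeR, adjusted p under 0.05), and in 3695 without both outlying day 7 libraries. Among 25 fixed genes the difference passed for 9, each given as the effect at day 7 minus the effect at day 3. It was larger at day 7 for Acta2, by 2.76 (adjusted p = 3.17e-07, or 2.503 without both outlying libraries), with 2199 ± 683 CPM with Sox17 and 64.8 ± 6.14 CPM in control at day 7 (SD, n = 3). Mki67 differed by 1.83 (adjusted p = 4.86e-05, or 1.95), with 46.9 ± 7.24 CPM with Sox17 and 15.0 ± 3.43 CPM in control at day 7, and Hey1 by 1.63 (adjusted p = 0.00270, or 1.61).

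The difference was negative for 6 genes. Kdr had −1.91 (adjusted p = 0.0204, or −1.54), with 148 ± 71.5 CPM with Sox17 and 1.26 ± 0.398 CPM in control at day 7, Tek −1.54 (adjusted p = 7.93e-05, or −1.30), Pecam1 −1.34 (adjusted p = 0.0144, or −1.26) and Efnb2 −1.16 (adjusted p = 0.0195, or −0.82). Dcn had −1.81 (adjusted p = 1.88e-07, or −1.63) and Pdgfra −1.41 (adjusted p = 0.00850, or −1.04), so both were further below control at day 7. Some of these calls rested on 1 library of day 3: Pecam1 lost its call without replicate 2 of control (−0.94), Efnb2 without replicate 2 (−1.09) or 3 of control (−1.10), and Kdr without replicate 3 of control (−1.67). Ifit3, with no call, passed without replicate 3 of Sox17 (1.68), and Sox7 and Cdh5 passed without both outlying day 7 libraries (1.24 and 1.69). The cause was not tested.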

How the results depend on the processing

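No named gene reversed where an alternative gave it a value, which was 202 genes in most, 198 in the fit of 12 libraries and 186 in that of 6, and leaving out 1 library ended 2 to 6 of their calls. The test beyond 1.5-fold left 1470 genes higher and 1393 lower with Sox17 than control, 2149 and 2290 against Erg, and 638 for the change between days, and it ended 24 named calls, Notch1 and Sox7 among them, since it asks for larger changes. It also moved 34 of 78 list counts, by a factor above 1.5 or to 0. Leaving out 1 library gave 2663 to 2806 higher and 2546 to 2585 lower, 3881 to 4179 and 3637 to 3971 against Erg, and 1630 to 1805 for the change between days, which was 3695 without both outlying day 7 libraries. That setting called 8649 genes, all 5987 of the full fit among them, the fit of 6 libraries 8103 (5624 shared) and that of 12 libraries 8595 (5816 shared). DESeq2 called 3172 higher and 3082 lower, RLE factors 3053 and 2929, and no filter 3013 and 2567. The replicate block gave 3060 higher and 2875 lower and 2021 for the change between days. The labels share only numbers: deviations of same-numbered libraries correlated at −0.059, 0.012 and 0.003. The block ended the call of Robo4 (adjusted p = 0.0616). At 3 counts over a group, levels under 0.0317 CPM with Sox17 and 0.0520 CPM in control were not detectable.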
